A study of Arabidopsis thaliana with 4 samples.

Results

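Transcript levels of 10 genes for protein folding and stress in the endoplasmic reticulum (ER) were described across leaves of Arabidopsis thaliana, out of 32982 genes counted. The 10 genes were chosen by a list of locus identifiers, with earlier results of these data known. Their shares set against all genes below are therefore descriptions of a chosen list. They were BIP1 (AT5G28540), BIP2 (AT5G42020), BIP3 (AT1G09080), ERDJ3A (AT3G08970), ERDJ3B (AT3G62600), SDF2 (AT2G25110), CNX1 (AT5G61790), CRT1A (AT1G56340), SHD (AT4G24190) and BZIP60 (AT1G42990). All 10 passed the filter on low counts that left 19403 genes for testing.

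The study holds 4 groups of 3 libraries each. Local leaves received either water (the control local group) or Dox (the Dox local group), and systemic leaves carry the label control (the control systemic group) or Dox (the Dox systemic group). The labels name the agent only as Dox, give its dose as 25 with the unit um/g, and list no agent as applied to systemic leaves. The series title presents the study as one of systemic adaptation to mitochondrial stress, so the comparisons ask what differs in the leaves that were given Dox and in the systemic leaves that go with them. No ecotype, mutation, plant age or time between treatment and harvest is given in the sources used here, and nothing says whether the 3 libraries of a group came from separate plants. The p-values are therefore set against the spread of these 3 libraries per group, and that spread may be technical.

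Proteins of the secretory pathway fold in the ER with the Hsp70 chaperone BiP and its J-domain co-chaperones, with the sugar-binding chaperones calnexin and calreticulin, and with the Hsp90 chaperone SHEPHERD. When unfolded proteins accumulate there, the unfolded protein response raises transcription of these genes. In plants the sensor IRE1 splices the BZIP60 transcript into a form that encodes an active transcription factor, and the membrane-bound factors bZIP28 and bZIP17 are cut loose and move to the nucleus. BIP3 is scarce in unstressed Arabidopsis tissue and is commonly used as a marker of the response.

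The factors of this response are known to act through short promoter motifs. The stretches that hold a match to one are shown for 3 of the 10 genes, BIP3, CRT1A and SHD. The other 7 had no match in the window searched. The 250 bases before each annotated transcript start were searched on both strands in the TAIR10.1 assembly, with the start positions of its RefSeq annotation. The ER stress response element was searched as CCAAT and CACG with 10 bases between them, its second form as ATTGG and CCACG with 1 base between them, and the core of the unfolded protein response element as TGACGTGG. Capitals mark the letters of a match that the motif specifies, and each stretch is written 5′ to 3′ on the strand of its gene, which is the minus strand in all 3 cases.
BIP3, chr1:2931918-2932034: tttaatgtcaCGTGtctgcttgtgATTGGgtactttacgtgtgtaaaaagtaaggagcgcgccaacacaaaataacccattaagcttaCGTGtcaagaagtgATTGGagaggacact
CRT1A, chr1:21092710-21092817: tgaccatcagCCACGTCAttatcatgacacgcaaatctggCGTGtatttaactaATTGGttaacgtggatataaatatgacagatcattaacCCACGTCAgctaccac
SHD, chr4:12556059-12556114: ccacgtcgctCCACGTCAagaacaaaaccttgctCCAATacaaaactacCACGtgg

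The BIP3 stretch holds 2 matches to the first motif, both on the opposite strand, at 183 to 165 and at 105 to 87 bases before the start. The CRT1A stretch holds 1 match to the first motif, at 68 to 50 bases, and 2 to the core motif, at 98 to 91 and at 16 to 9 bases. In SHD, a match to the first motif lies at 22 to 4 bases and a match to the core motif at 46 to 39 bases. No 2 of these matches overlap, and none of the 3 stretches overlaps another annotated gene. Of 27400 promoters of the same length, 0.693% hold the first motif, 0.0547% the second form and 1.31% the core motif, against 3, 0 and 2 of the 10 genes and 7, 0 and 4 of the 37 genes of a wider ER list described further on. A match is a run of letters and not a measured binding site, and the lack of one says only that these letters are not in the window searched.

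Total counts ranged from 18981328 to 21380652 per library, with 21429 to 22325 genes detected. Libraries of a group differed by more than counting error, the chi-square of a gene divided by its degrees of freedom having a median of 8.75 (Dox systemic) to 18.7 (Dox local). The summed level of 3 leaf mesophyll markers was 11400 to 20400 CPM (reads scaled to a common library size by the trimmed mean of M-values) in every library, and that of 3 flower markers was at most 1.82 CPM. Markers of guard cells summed to 53.3 to 149 CPM and those of vascular tissue to 85.9 to 180.0 CPM. Of 4 root markers, PRP3, COBL9 and PIN2 stayed under 1 CPM in every library, while PYK10, a beta-glucosidase of root ER bodies, was at 239, 184 and 179 CPM in control local leaves and at 1.65 to 77.4 CPM in the other 9 libraries. The part of this difference in the values below was not tested. In such bulk samples, fewer cells of a type and less RNA per cell cannot be told apart.

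Compared per kilobase of transcript, the ER genes formed an abundant set and a scarce pair. Over the 12 libraries, BZIP60 had the highest mean level, 140 ± 64.5 CPM per kb (SD, n = 12), followed by CRT1A at 119 ± 41.0 and CNX1 at 90.4 ± 48.0 CPM per kb. SHD (82.9 ± 23.9), BIP1 (73.8 ± 37.1), BIP2 (73.5 ± 47.6), ERDJ3B (61.0 ± 30.1) and SDF2 (42.6 ± 20.4 CPM per kb) came next. ERDJ3A at 0.928 ± 1.11 and BIP3 at 0.316 ± 0.242 CPM per kb were far below them. Among the 8 abundant genes, neighbours in this order differed by less than 1 SD, a spread over libraries that all the genes share. Their order within each library was not tested. How reads that fit both BIP1 and BIP2, which are near-identical copies, were counted is not given. The places of BIP1 and BIP2 in this order are therefore uncertain.

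The BiP genes encode the ER Hsp70. In libraries 1, 2 and 3, BIP1 stood at 177, 161 and 334 in control local, 367, 110.1 and 393 in Dox local, 156, 178 and 269 in control systemic, and 118, 171 and 77.4 in Dox systemic leaves, in CPM. BIP2 stood at 113, 109.5 and 347 in control local, 366, 80.2 and 398 in Dox local, 126, 168 and 278 in control systemic, and 85.5, 135 and 65.8 in Dox systemic leaves, in CPM. For both genes, control local library 3 and Dox local libraries 1 and 3 were the 3 highest of the 12, and Dox systemic library 3 was the lowest. The Dox local group was split, with its library 2 below all 6 control libraries for each gene.

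BIP1 and BIP2 are near-identical copies, with 97.3% of aligned coding positions the same and 22.9% of the 50-base windows of the BIP1 transcript present unchanged in BIP2. How reads that fit both were counted is not given in the sources used here, so the division between them is uncertain. Their sum does not depend on that division, but it is too low if such reads were discarded. Summed, the pair was at 414 ± 232 CPM in control local, 571 ± 331 in Dox local, 391 ± 139 in control systemic and 217 ± 82.3 CPM in Dox systemic leaves (SD, n = 3 each). The count of BIP2 per count of BIP1 was between 0.64 and 1.04, being 0.997 to 1.04 in the 4 libraries with the largest sums and at most 0.94 in the other 8.

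BIP3, the stress-marker copy, shares 70.6% of aligned coding positions with BIP1 and no 50-base window. It was near the limit of detection, with 157 reads over the 12 libraries. Its levels were 0.669, 0.330 and 0.831 in control local, 1.67, 0 and 1.48 in Dox local, 0.885, 0.305 and 0.155 in control systemic, and 0.856, 0.608 and 0.256 in Dox systemic leaves, in CPM. The 0 in Dox local library 2 is a count of 0, which allows up to 0.163 CPM (3 counts), and Dox local libraries 1 and 3, with 28 and 29 counts, were the 2 highest of the 12. Read counts without molecular identifiers are not independent molecules, so this limit covers counting error only.

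The co-chaperones ERDJ3A and ERDJ3B carry J domains that stimulate BiP, and SDF2 forms a complex with ERDJ3B. ERDJ3A had the widest range of the 9 genes with counts in every library, at 1.10, 0.802 and 3.26 in control local, 8.62, 0.163 and 3.71 in Dox local, 1.30, 0.740 and 1.40 in control systemic, and 0.766, 0.842 and 0.811 in Dox systemic leaves, in CPM. Within Dox local leaves it ran from 3 counts in library 2 to 145 in library 1, a 53-fold ratio in CPM with an exact counting interval of 17.8 to 260. In Dox systemic leaves its 3 libraries lay within 0.766 to 0.842 CPM. ERDJ3B was at 68.7, 69.5 and 164 in control local, 177, 62.4 and 162 in Dox local, 95.7, 85.0 and 131 in control systemic, and 43.6, 71.2 and 43.5 in Dox systemic leaves, in CPM, and all 3 Dox systemic libraries lay below all 3 control systemic ones. Such a separation was seen in 8.41% of all genes.

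SDF2 was at 48.1, 47.8 and 105 in control local, 116, 34.6 and 98.4 in Dox local, 54.4, 57.8 and 84.2 in control systemic, and 33.2, 47.9 and 27.8 in Dox systemic leaves, in CPM. Like its partner ERDJ3B, it was highest in Dox local library 1 and lowest in Dox systemic library 3, and its Dox systemic and control systemic libraries did not overlap either.

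The lectin chaperones CNX1, a membrane calnexin, and CRT1A, a soluble calreticulin, hold glycoproteins until they fold. CNX1 was at 151, 152 and 361 in control local, 330.5, 108 and 371 in Dox local, 142, 159 and 263 in control systemic, and 108, 144 and 79.1 in Dox systemic leaves, in CPM. CRT1A was at 160.3, 199 and 332 in control local, 323, 146 and 300.1 in Dox local, 210.2, 226 and 293 in control systemic, and 122, 202 and 126 in Dox systemic leaves, in CPM. The range of CRT1A over the 12 libraries was 2.72-fold, narrower than the 4.69-fold range of CNX1, and its Dox systemic libraries all lay below its control systemic libraries. The same held for 8.41% of all genes.

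SHD encodes SHEPHERD, the ER Hsp90, known for its role in shoot and floral meristems. It had the narrowest range of the 10 genes, 2.62-fold, at 237, 247 and 342 in control local, 347, 191 and 355 in Dox local, 194, 254 and 307 in control systemic, and 186, 217 and 135 in Dox systemic leaves, in CPM. Its Dox systemic libraries 1 and 3 were below every control library, while Dox systemic library 2 lay among them.

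BZIP60 encodes the transcription factor whose transcript IRE1 splices, and the gene counts do not separate the spliced from the unspliced form. It was at 129, 124 and 279.6 in control local, 318, 253 and 214 in Dox local, 126, 60.6 and 188 in control systemic, and 89.0, 125 and 161 in Dox systemic leaves, in CPM. Its pattern was not that of the chaperones. Dox local library 2, among the 3 lowest for the other 9 genes, was the third highest for BZIP60, and control systemic library 2 was its lowest. All 3 Dox local libraries lay above all 3 Dox systemic ones, by group means of 262 ± 52.6 CPM and 125 ± 36.1 CPM (SD, n = 3 each). Of all genes, 11.8% had every systemic library lower in Dox plants.

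**Figure D1:**
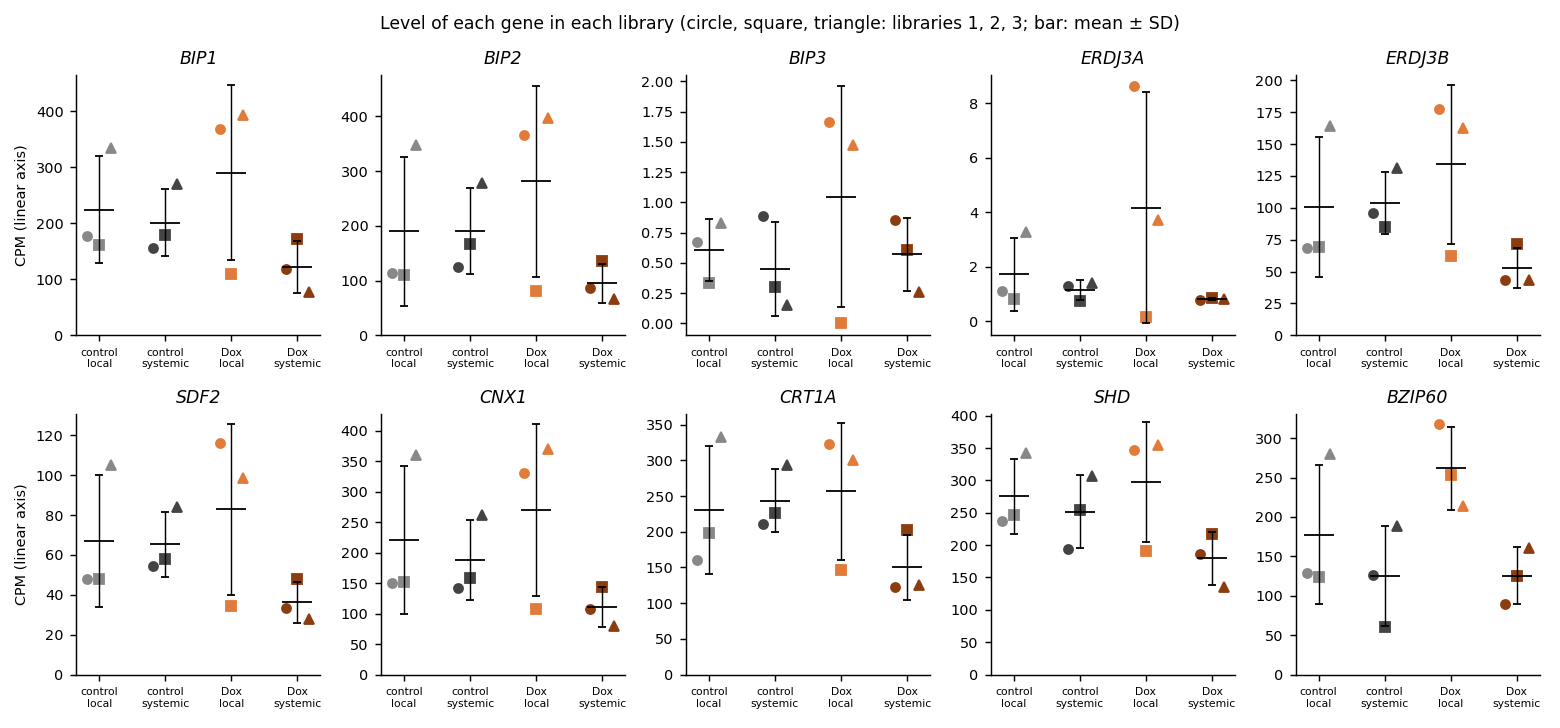
Level of each of the 10 genes in CPM (linear axis, a separate scale for each gene) in the 4 groups, with circle, square and triangle for libraries 1, 2 and 3 and a bar for the mean ± SD (n = 3). Dox local library 2 (square) sits far below libraries 1 and 3 of its group for every gene but BZIP60, and control local library 3 (triangle) sits above the other control local libraries for all 10.

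In local leaves, Dox was compared with water to ask what the treated leaf itself shows. All 10 log2 fold changes were above 0, from 0.11 for SHD to 1.28 for ERDJ3A, with a median of 0.39 against 0.02 over all genes tested, of which 52.2% were above 0. Of the 10, 7 rose and fell together from library to library (Pearson’s r of 0.909 to 0.99). The 10 signs are therefore not independent results, here or in the comparisons below. The sign turned for SDF2, CRT1A and SHD without Dox local library 1, to between -0.05 and -0.01, for CNX1 and SHD without Dox local library 3, for CRT1A without control local library 1, and for SHD on total counts alone. None of the 10 passed at an adjusted p under 0.05 by edgeR’s quasi-likelihood test with Benjamini-Hochberg adjustment, the adjusted p running from 0.902 to 0.95, against 0% of all genes. At an unadjusted p under 0.05 there were again 0 of 10, against 4.72% of all genes, and DESeq2 called 0 of 10, against 0.0676%.

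The largest value was that of ERDJ3A, 1.28 (SE 0.90), with a 95% interval of -0.70 to 3.26, and it was 0.19 without Dox local library 1. BIP3 was at 0.78 (SE 1.00), BIP2 at 0.57 (SE 0.60) and BZIP60 at 0.56 (SE 0.42) on the log2 scale. ERDJ3B (0.41), BIP1 (0.37), SDF2 (0.31), CNX1 (0.29) and CRT1A (0.16) had smaller log2 fold changes. For each of the 10 the Dox and control libraries overlapped, where 4.14% of all genes had every Dox library higher and 3.4% every Dox library lower. The median of the 10 was 0.90 without control local library 3 and 0.16 without Dox local library 1.

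In systemic leaves, Dox was compared with control to ask what leaves away from the treated ones show. The 10 genes had a median log2 fold change of -0.71 against -8e-04 over all genes, and 8 of 10 were below 0, against 50.1% of all genes. The median was -0.45 without control systemic library 3, and the values of BIP3 and BZIP60, the other 2 genes, turned sign when single libraries were left out. None passed at an adjusted p under 0.05 by edgeR’s quasi-likelihood test with Benjamini-Hochberg adjustment (0.569 to 1, against 0% of all genes). Of the 10, 1 gene, ERDJ3B, had an unadjusted p under 0.05, where 8.61% of all genes did, and DESeq2 called 0 of 10, against 0.589%.

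ERDJ3B was at 52.8 ± 16.0 CPM in Dox and 104 ± 24.1 CPM in control systemic leaves (SD, n = 3 each), a log2 fold change of -0.98 (SE 0.43) with a 95% interval of -1.92 to -0.03 and an adjusted p of 0.569 by edgeR. SDF2 had -0.85 (SE 0.44) and CRT1A -0.70 (SE 0.35). These 3 genes were the ones whose Dox libraries all lay below the control libraries, 3 of 10 against 8.41% of all genes. Pearson’s r of log2 CPM among these 3 was 0.973 to 0.984 over the 12 libraries, so they are not 3 independent results. BIP2 (-0.997, SE 0.61), CNX1 (-0.77, SE 0.48), BIP1 (-0.72, SE 0.47) and SHD (-0.49, SE 0.29) had log2 fold changes below 0 with overlapping libraries, as had ERDJ3A (-0.50, SE 0.94). BZIP60 had near-equal means, 125 ± 36.1 CPM against 125 ± 63.8 CPM, with a 95% interval of its log2 fold change of -0.92 to 0.92. BIP3 had 0.36 (SE 1.03) and an interval of -1.91 to 2.62.

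Between systemic and local leaves of control plants, the log2 fold changes of 9 of the 10 genes were smaller than their standard errors, BZIP60 being the exception. They ran from -0.58 for ERDJ3A to 0.08 for CRT1A, with a median of -0.14 and 7 of 10 below 0, against 50.7% of all genes. None passed by edgeR’s quasi-likelihood test with Benjamini-Hochberg adjustment (0.849 to 0.998, against 0% of all genes), none had an unadjusted p under 0.05 (6.88% of all genes did), and DESeq2 called 0 of 10 (0.174%). For none of the 10 did the groups separate, against 4.96% of all genes with every systemic library lower and 8.03% with every one higher. BZIP60 had the smallest adjusted p, 0.849 by edgeR, at -0.51 (SE 0.42). The median was 0.29 without control local library 3.

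Same-numbered control libraries deviated together over all genes, so this comparison was also fitted on the 6 control libraries with the library number as a replicate block. The pairing was read from these same counts and not from the labels. The blocked fit was added after the data were seen, so its calls rest on a choice made from these data. In that fit 71 genes passed instead of 0, and none of the 10 did. BZIP60 had a log2 fold change of -0.54 (SE 0.21), with the smallest adjusted p of the 10, 0.25 by edgeR. The other 9 had adjusted p-values of 0.68 to 0.919 in the blocked edgeR fit.

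Between systemic and local leaves of Dox plants, the median of the 10 genes was farther from 0 than in the other 3 comparisons between groups. All 10 log2 fold changes were below 0, with a median of -1.22 against 0.02 over all genes, of which 47.9% were below 0. None passed at an adjusted p under 0.05 by edgeR’s quasi-likelihood test with Benjamini-Hochberg adjustment, the adjusted p running from 0.22 to 0.651, against 0.00515% of all genes, which is 1 gene, the receptor-like kinase CRK4 (log2 fold change -1.66, SE 0.17, adjusted p 0.0123), named after its value was seen. DESeq2 called 0 of 10, against 2.74% of all genes, and its smallest adjusted p among the 10 was 0.0647, for ERDJ3B.

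At an unadjusted p under 0.05 there were 9 of 10, all lower in systemic leaves, against 17.9% of all genes in either direction and 10.3% lower. Of the 9, 7 rose and fell together from library to library (Pearson’s r of 0.909 to 0.99), so these are not 9 independent results. ERDJ3B was at 52.8 ± 16.0 CPM in systemic and 134 ± 62.5 CPM in local leaves (SD, n = 3 each), with a log2 fold change of -1.34 (SE 0.43), a 95% interval of -2.30 to -0.39 and an adjusted p of 0.22 by edgeR. ERDJ3A had the largest log2 fold change, -2.36 (SE 0.94), and BIP2 the next, -1.56 (SE 0.62). CNX1 (-1.29, SE 0.48), BIP1 (-1.25, SE 0.48), SDF2 (-1.19, SE 0.44) and BZIP60 (-1.06, SE 0.42) were near -1 or below. CRT1A (-0.78, SE 0.35) and SHD (-0.73, SE 0.29) had the smallest among the abundant genes. BIP3, at -0.86 (SE 1.00), was the one gene of the 10 with an interval that reached above 0, -3.05 to 1.32.

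In 9 of these 10 genes the Dox local and Dox systemic libraries overlapped, with Dox local library 2 within or below the Dox systemic range. BZIP60 was the exception, 1 of 10 against 11.8% of all genes with every systemic library lower. The median over the 10 genes was -1.602 without Dox local library 2 and -0.97 without Dox local library 1. For ERDJ3A the log2 fold change was -2.93 and -1.27 in those fits.

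Whether the Dox difference itself differed between leaf positions was tested as an interaction, the local minus the systemic Dox difference. All 10 values were above 0, against 51.1% of all genes, from 0.43 for BIP3 to 1.78 for ERDJ3A, with a median of 1.08 against 0.01 over all genes. Because 7 of the 10 rose and fell together from library to library, these are not 10 independent values. Without control systemic library 1 the BIP3 value was -0.52, and without Dox local library 1 it was -0.06 and that of ERDJ3A 0.69. None passed by edgeR’s quasi-likelihood test with Benjamini-Hochberg adjustment (0.832 to 0.96, against 0% of all genes), and DESeq2 called 0 of 10 (0.004% of all genes). ERDJ3B, at 1.39 (SE 0.61) on the log2 scale with an interval of 0.06 to 2.72, was 1 of 10 with an unadjusted p under 0.05, against 5.2% of all genes. BIP2 (1.56, SE 0.86), SDF2 (1.16, SE 0.62), BIP1 (1.09, SE 0.67) and CNX1 (1.06, SE 0.68) had intervals that included 0. The comparisons share groups, so their values for a gene are not independent of each other.

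**Figure D2:**
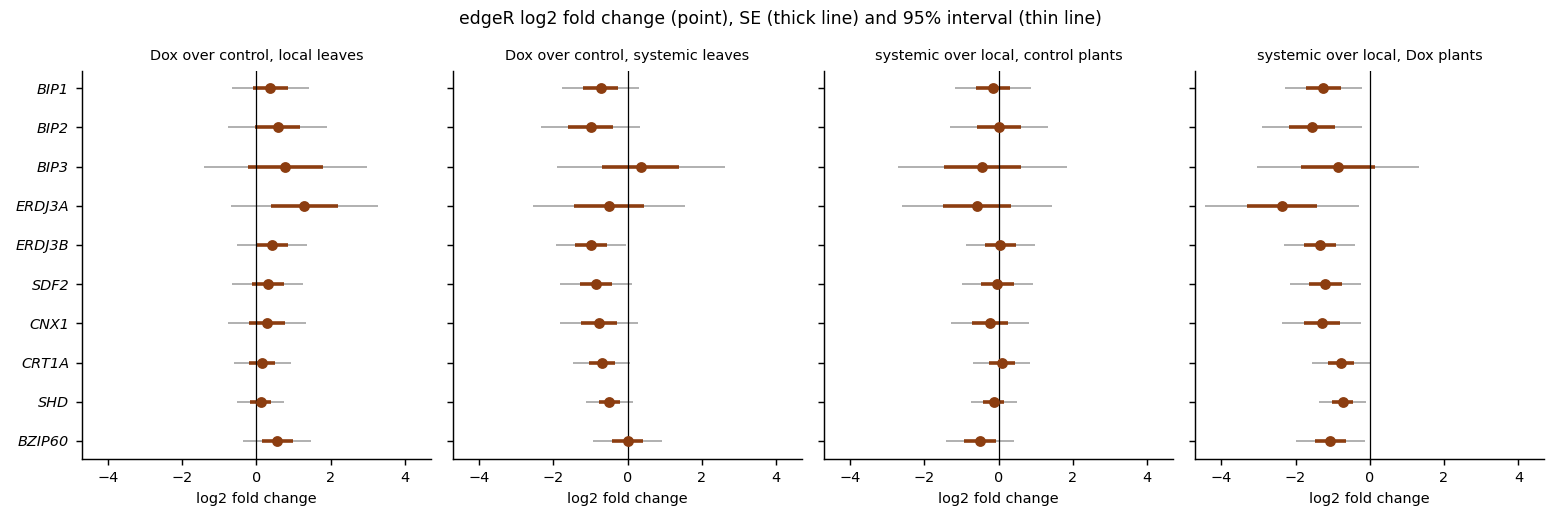
edgeR log2 fold change of each of the 10 genes in the 4 comparisons between groups, with the point for the estimate, the thick line for ± 1 SE and the thin line for the 95% interval. In Dox plants all 10 points lie below 0, from -2.36 for ERDJ3A to -0.73 for SHD, and the points for the control plants lie between -0.58 and 0.08.

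Much of the variation lay between libraries of the same group. The groups accounted for a median of 36.9% of the variance of the 10 genes over the 12 libraries, against 35% over all genes tested. This share is not adjusted for the number of groups, so part of it arises without any group difference. It ranged from 3.48% for BIP3 and 12.3% for ERDJ3A to 46.8% for ERDJ3B and 48.7% for BZIP60. The summed level of the 10 genes was 2356 CPM in Dox local library 1, 2296 in Dox local library 3 and 2269 in control local library 3, followed by 1815 in control systemic library 3. The other 8 libraries were between 716.8 CPM, in Dox systemic library 3, and 1190 CPM, in control systemic library 2. Dox local library 1 was among the 3 highest libraries for 10 of 10 genes, and control local library 3 and Dox local library 3 for 9 each. Dox local library 2 and Dox systemic library 1 were among the 3 lowest for 9 genes each, and Dox systemic library 3 for 8, being the lowest of all for 6. The highest libraries thus included a water-treated one, and 1 of the 3 Dox local libraries was among the lowest.

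Cytosolic heat shock genes are a separate stress readout and did not run in proportion to the ER genes. The summed level of 7 of them (HSFA2, MBF1C, HSP70, HSP101, HSP90.1, DNAJ and HSP17.4) was 823 CPM in Dox local library 1, 80.3 in Dox local library 3, 77.8 in control local library 3, 48.2 in control systemic library 3 and 46.2 CPM in Dox local library 2. The other 7 libraries were at 17.6 to 27.3 CPM. The summed ER level was nonetheless within 2269 to 2356 CPM in those first 3 libraries. ERDJ3A, the scarce co-chaperone, was higher in Dox local library 1, at 8.62 CPM, than in Dox local library 3 (3.71 CPM) or control local library 3 (3.26 CPM). The 4 highest libraries were the same for both readouts.

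**Figure D3:**
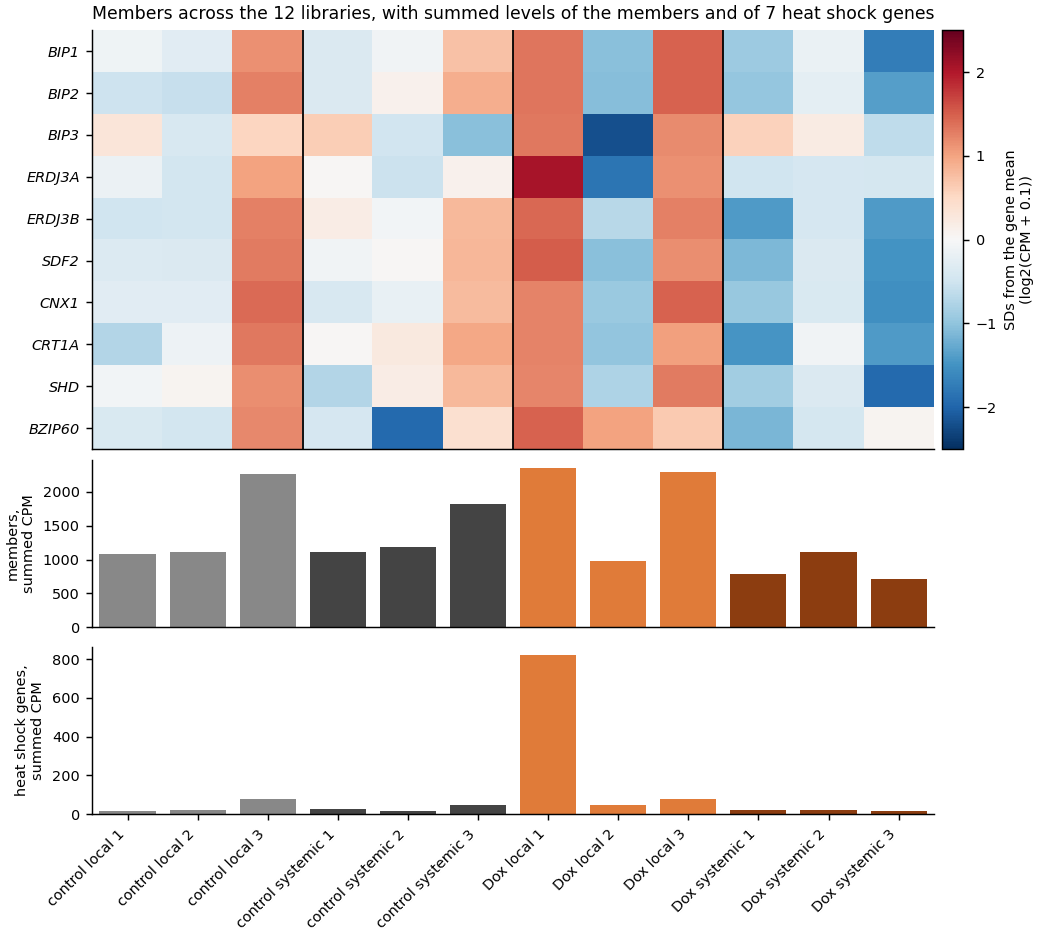
Each of the 10 genes in the 12 libraries as SDs from its own mean of log2(CPM + 0.1) (colour), above the summed CPM of the 10 genes and the summed CPM of 7 cytosolic heat shock genes (bars, linear axes from 0). Control local library 3 and Dox local libraries 1 and 3 have summed ER levels of 2269, 2356 and 2296 CPM, while the heat shock sum is 823 CPM in Dox local library 1 and at most 80.3 CPM elsewhere.

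The chaperone genes ran closely together from library to library. Among the 7 abundant folding genes (BIP1, BIP2, ERDJ3B, SDF2, CNX1, CRT1A and SHD), a grouping made after their values were seen, Pearson’s r of log2 CPM over the 12 libraries was 0.909 to 0.99 in the 21 pairs, with a median of 0.968. For deviations from the group means, r was 0.87 to 0.996. ERDJ3A had r of 0.723 to 0.844 with those 7 genes, BIP3 0.407 to 0.557 and BZIP60 0.415 to 0.566. The libraries share their scaling and their groups, and the pair BIP1 and BIP2 may share reads, so these values are descriptions of likeness.

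Outside the 10 genes, 12304 genes at a mean of 10 CPM or more were ranked by Pearson’s r with the mean standardized log2 CPM of the 10, over the 12 libraries. The 5 highest were UTR3 (0.982), a UDP-sugar transporter of the ER, UNE5 (0.972), also called PDIL2-1 and a protein disulfide isomerase, GLX1 (0.97), a glyoxalase I homologue, AT3G26070 (0.968), and the disulfide isomerase PDIL2-2 (0.966). By Spearman’s rho, 1 of these 5 stayed among the 5 highest. In all, 85 genes, or 0.691%, had r over 0.9, among them 8 of the 32 ranked genes of the wider ER list described next. For BIP3 alone the nearest gene was CYP71B28, a cytochrome P450, with r of 0.901, followed by AT1G15740 (0.879), HCF107 (0.879), PLAT1 (0.872) and AT1G49590 (0.871), of which 2 stayed among the 5 highest by rho. These r values for BIP3 rest on its 157 reads in the 12 libraries and were the highest picked from 12304 genes. Likeness to BIP3 is therefore uncertain.

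The wider ER list held 37 further genes, of which 36 were measured and BZIP49 did not pass the filter on low counts. None of the 36 passed in any of the 5 comparisons by edgeR’s quasi-likelihood test with Benjamini-Hochberg adjustment. Their median log2 fold change was 0.02 for Dox over control in local leaves (20 above 0, 16 below), -0.21 in systemic leaves (11 above, 25 below), -0.13 for systemic over local leaves in control plants (7 above, 29 below) and -0.44 in Dox plants (8 above, 28 below). At an unadjusted p under 0.05 there were 1, 4, 1 and 13 of the 36 in that order, against 4.72%, 8.61%, 6.88% and 17.9% of all genes. The median interaction was 0.30, with 25 above 0 and 2 of 36 at an unadjusted p under 0.05, against 5.2% of all genes.

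By role, the difference between systemic and local leaves of Dox plants was lowest for the 4 BiP co-chaperones, with a median of -0.75, and for the 4 lectin chaperones, with a median of -0.58. The 3 other targets of the response had a median of -0.57 and the 9 genes of disulfide formation one of -0.36. The 7 genes of ER-associated degradation, which return misfolded proteins to the cytosol, had a median of -0.18, and the 9 measured sensors and factors one of -0.14.

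PDIL2-2 had the largest log2 fold change of the wider list in Dox plants among genes at a mean of 10 CPM or more. Its levels were 19.7, 17.3 and 56.1 in control local, 47.6, 13.7 and 56.1 in Dox local, 19.8, 26.2 and 44.7 in control systemic, and 11.5, 20.5 and 10.2 in Dox systemic leaves, in CPM. The log2 fold change was -1.48 (SE 0.58), with an adjusted p of 0.245 by edgeR, and -1.11 (SE 0.57) for Dox over control in systemic leaves. The same 3 libraries as for the chaperones were its highest.

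P58IPK, a J-domain co-chaperone, was at 11.7, 13.1 and 34.2 in control local, 30.4, 11.4 and 36.4 in Dox local, 10.8, 15.5 and 25.9 in control systemic, and 9.55, 13.2 and 10.4 in Dox systemic leaves, in CPM. In Dox plants its log2 fold change was -1.24 (SE 0.50), that of the disulfide-forming oxidase ERO1 was -1.17 (SE 0.48) and that of the disulfide isomerase PDIL1-2 was -1.09 (SE 0.48), with adjusted p-values of 0.249, 0.253 and 0.27 by edgeR. In systemic leaves, Dox over control was -0.93 (SE 0.38) for the calreticulin CRT1B, -0.90 (SE 0.48) for PDIL1-2 and -0.76 (SE 0.39) for the ubiquitin ligase HRD1B. The interaction was 1.45 (SE 0.80) for PDIL2-2, 1.14 (SE 0.55) for HRD1B, 1.11 (SE 0.53) for CRT1B and 1.07 (SE 0.70) for P58IPK.

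Values were mixed among the sensors and factors that act upstream of the chaperones. IRE1B, one of the BZIP60-splicing sensors, was at 31.0, 27.5 and 23.2 in control local, 17.96, 22.2 and 17.9 in Dox local, 20.1, 24.6 and 20.3 in control systemic, and 22.3, 21.7 and 16.4 in Dox systemic leaves, in CPM. In local leaves its log2 fold change for Dox over control was -0.49 (SE 0.18), with an unadjusted p of 0.0167 and an adjusted p of 0.902 by edgeR. Its Dox local libraries all lay below its control local ones, 1 of 36 against 3.4% of all genes. NAC062 (0.47, SE 0.46), P58IPK (0.41, SE 0.49) and BZIP28 (0.39, SE 0.34) had the next largest values there among genes at a mean of 10 CPM or more. Between systemic and local leaves of control plants the largest above that mean were NAC062 (-0.77, SE 0.46), BZIP28 (-0.52, SE 0.34), the sensor IRE1A (-0.45, SE 0.28) and the degradation factor DER2.2 (-0.39, SE 0.15), with adjusted p-values of 0.658 to 0.797 by edgeR. Pearson’s r with the mean profile of the 10 genes was 0.709 for IRE1A, 0.47 for BZIP28, -0.211 for IRE1B, -0.353 for BZIP17 and -0.715 for the protease S1P, which cuts bZIP17.

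DESeq2 called 1 of the 36 genes in any comparison, TIN1, a gene induced by the ER stressor tunicamycin, at a log2 fold change of -3.85 (adjusted p 0.023) between systemic and local leaves of Dox plants. That is 1 of 36 genes in a comparison where DESeq2 called 2.74% of all genes. TIN1 is named for this call after its values were seen, its mean lying under 10 CPM. It was at 0.286, 0.424 and 2.37 in control local, 5.47, 0.163 and 4.02 in Dox local, 1.25, 0.348 and 1.6 in control systemic, and 0.270, 0.280 and 0.128 in Dox systemic leaves, in CPM. Dox local library 2, with 3 counts, lay within the Dox systemic range of 3 to 6 counts, and the edgeR value was -3.80 (SE 1.16) with an adjusted p of 0.22. Control local library 3 was again high, at 2.37 CPM, against 0.286 and 0.424 CPM in the other 2 control local libraries.

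**Figure D4:**
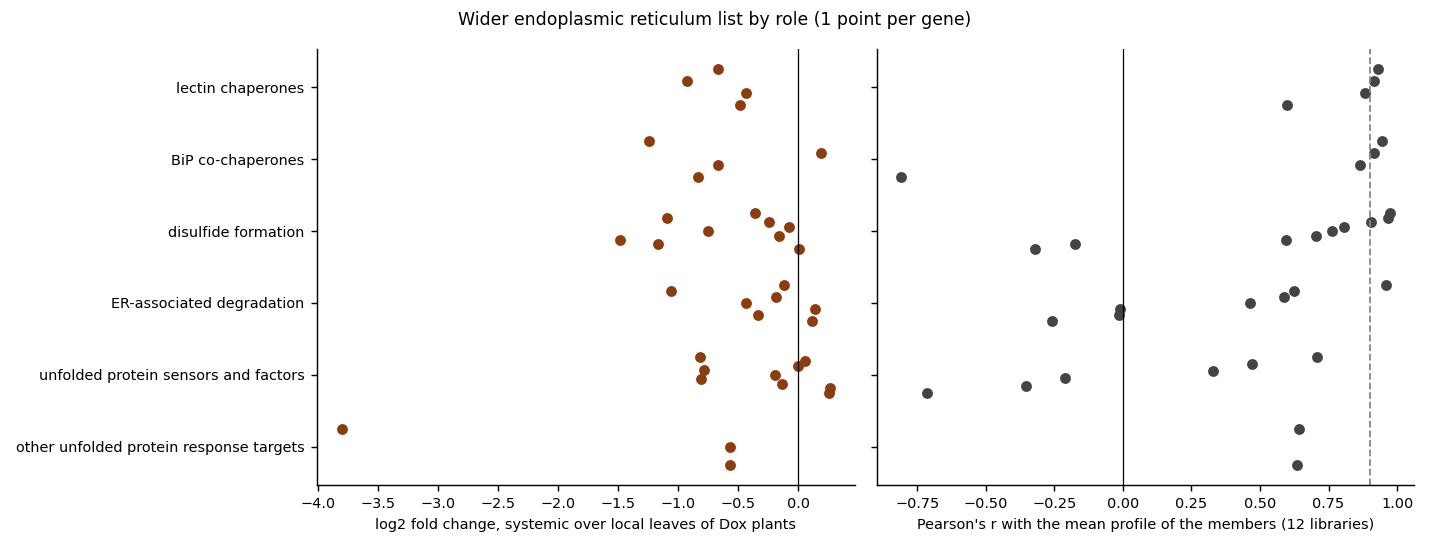
The wider ER list by role, 1 point per gene, with the edgeR log2 fold change between systemic and local leaves of Dox plants on the left and Pearson’s r with the mean profile of the 10 genes over 12 libraries on the right, for the 32 genes at a mean of 10 CPM or more (dashed line at 0.9). TIN1 is the point at -3.80, and 28 of the 36 genes lie below 0.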

How the data were processed

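Leaf mRNA was sequenced in 4 groups, 12 libraries in all. The labels' protocols name a TruSeq kit for mRNA purification and a SMARTER kit for the libraries. The deposited values are raw read counts per gene, not normalized. The submitters' processing notes list FastQC 0.11.9, Trimmomatic 0.39, HISAT2, DESeq2 and featureCounts 1.6.3 without their roles. Build, strand setting and treatment of multi-mapped reads are not given in the sources. Without strand, reads of overlapping antisense genes cannot be told apart. Precision is set by the spread between 3 libraries and, for the scarce BIP3 and ERDJ3A, also by counting error.

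The 10 genes, the wider ER list and the markers were chosen with earlier results of these data known. Groups were tested with the quasi-likelihood method of edgeR (edgeR 4.0.16, limma 3.58.1, R 4.3.3) on 4 group means, with TMM normalization, filterByExpr (minimum count 10) and Benjamini-Hochberg adjustment over 19403 genes. The fit had 8 residual and 3.32 prior degrees of freedom, and its common biological coefficient of variation was 0.32. The edgeR fit was tested on simulated counts with known changes, for Dox over control in systemic leaves. The other steps were not covered by that test. Transcript lengths, names, promoters and coordinates came from the TAIR10.1 assembly and its RefSeq annotation, matched by locus identifier; 32548 identifiers matched and 285 did not, none of the latter nuclear. The count files carry no coordinates.

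DESeq2 1.42.0 was an alternative, with its default independent filtering. Filtering tuned to 0.05 had been run first, and the default was kept after both sets of counts had been seen. Other alternatives were other scalings, no filter, only the groups compared, blocks and libraries left out. Same-numbered libraries were read as pairs in control plants only, from the data and not the labels, with correlations of their deviations of 0.291, 0.399 and 0.704. In the other 3 comparisons between groups at least 1 of 3 correlations was under 0.1, and no pairing was read from the numbers. Whether those libraries are paired is not known. From the wider list, up to 4 genes per comparison with the largest absolute log2 fold change and a mean of 10 CPM or more were named. The 5 genes with the highest Pearson's r with the mean standardized log2 CPM (prior count 2) of the 10 were named as most like them.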

Additional observations from a re-analysis of the deposited data

How the results depend on the processing

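None of the 10 genes passed an adjusted p under 0.05 in any comparison under any alternative run. Of 700 alternative log2 fold changes, 656 kept their direction and 44 changed sign, 27 of these between systemic and local leaves of control plants, 8 for Dox over control in systemic leaves, 7 in local leaves, 2 in the interaction and 0 between systemic and local leaves of Dox plants. The median of the 10 kept its direction under every alternative except in control plants, with ranges of 0.16 to 0.90 (Dox over control, local leaves), -0.99 to -0.45 (systemic leaves), -0.34 to 0.29 (position, control plants), -1.60 to -0.91 (position, Dox plants) and 0.76 to 1.55 (interaction).

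In that order of comparisons, DESeq2 called 14, 122, 36, 554 and 1 genes against 0, 0, 0, 1 and 0 in edgeR, and 14, 134, 53, 572 and 1 with independent filtering at 0.05, an alternative added after the data were seen. Between positions in control plants, 1 gene passed on total counts alone and 1 without the low-count filter, against 0. Between positions in Dox plants, 0 passed on total counts alone, in a fit of only the groups compared, or without Dox local library 1 and control local library 3, against 1, and leaving out 1 library gave 0 to 13, the 13 without Dox local library 2.

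With the replicate block over all 12 libraries 2 genes passed between positions in Dox plants, and with the block in control libraries alone, added after the data were seen, 71 passed between positions in control plants. For SDF2 the sign turned between positions in control plants, to 0.0102 and 0.0438, and the block changed no other call among the 10 genes.

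The sign changed for BZIP60 in systemic leaves with DESeq2 (-0.0018), its size factors (-0.0022) and only the groups compared (-0.013), and for BIP2 between positions in control plants with DESeq2 (-0.0178) and its size factors (-0.0172). On total counts alone, SHD was at -0.0146 in local leaves and SDF2 at 0.0482 between positions in control plants; that scaling moved the median of all genes to -0.12, 0.11, 0.03, 0.31 and -0.24 in the order above, and the medians of the 10 to 0.29, -0.59, -0.08, -0.91 and 0.85. Without Dox local library 1 and control local library 3, position in control plants gave 0.24 for BIP1, 0.26 for ERDJ3A, 0.44 for SDF2, 0.30 for CNX1 and 0.0467 for SHD.

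Leaving out 1 library at a time gave -0.0104 to 0.79 for SDF2, -0.0124 to 0.84 for CNX1, -0.0499 to 0.51 for CRT1A and -0.0337 to 0.35 for SHD in local leaves. In systemic leaves it gave -0.0516 to 1.28 for BIP3 and -0.33 to 0.42 for BZIP60. Between positions in control plants it gave -0.42 to 0.25 for BIP1, -0.37 to 0.77 for BIP2, -0.92 to 0.26 for ERDJ3A, -0.17 to 0.59 for ERDJ3B, -0.26 to 0.45 for SDF2, -0.56 to 0.31 for CNX1, -0.13 to 0.44 for CRT1A and -0.30 to 0.0556 for SHD. The BIP3 interaction was -0.52 to 1.01. The cause of these changes was not tested. The interaction has no fit of only the groups compared, since it uses all 4. Depth limits BIP3 and ERDJ3A, whose libraries hold as few as 0 and 3 counts.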
